A study of Homo sapiens with 6 samples.

Results

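FOXA1, FOXA2 and FOXA3 encode the FOXA transcription factors, and LINC00261 is a long noncoding RNA transcribed next to FOXA2. These 4 genes were taken by symbol from the 40396 genes of the expression table, and all 4 were among the 16371 genes that were tested, which averaged 0.5 FPKM or more over all libraries. With saracatinib (SAR), FOXA1, FOXA2 and LINC00261 rose 6.12-fold, 2.72-fold and 4.53-fold in mean FPKM. FOXA3 had a ratio of means of 1.24 and did not reach the fold threshold. The order of the members by FPKM was the same in all libraries of a condition and differed between the conditions.

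RNA was measured in H1, a line of human embryonic stem cells (ESCs), after 3 days of culture toward definitive endoderm (DE). The 3 control libraries came from cells given DMSO, the solvent, and the 3 SAR libraries from cells given 0.5 µM SAR, an inhibitor of Src family kinases, over all 3 days. All 6 cultures grew on Matrigel in medium with B27 and 50 ng/ml activin A, a ligand that acts through the Nodal receptors, and for the opening 24 h they also received the Wnt pathway activator CHIR99021 at 2.5 µM. The labels give ESCs as the cell type and DE cells in the sample titles, and H1 is a single cell line. Whether the libraries of a condition came from separate cultures is not stated, so the p-values measure the spread between these samples only.

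FOXA proteins are forkhead factors known as pioneer factors, because they can bind their DNA sites in closed chromatin and make them accessible to other factors. FOXA2 is a standard marker of DE and is also needed in the node, notochord and floor plate, the midline tissues of the embryo. FOXA1 and FOXA2 act together in liver and gut development, while FOXA3 is best known from liver and gut. LINC00261, also called DEANR1, has been studied in DE as a neighbor of FOXA2. Upstream of these genes in DE lie Nodal and activin signaling through SMAD proteins, Wnt signaling through TCF and LEF factors, and T-box factors such as EOMES.

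The values were FPKM, fragments scaled by gene length and by the total of the library, and the library totals recovered from them ranged from 18877964 to 24419937 reads for control and from 16681280 to 18389543 for SAR. Control replicate 1 listed 33169 genes above 0, and the other 5 libraries listed between 29506 and 30109. Genes were called upregulated or downregulated at an adjusted p-value under 0.05 (limma on log2(FPKM + 0.1), two-sided, Benjamini-Hochberg over the 16371 genes) with a log2 fold change (log2FC) above 1 or under -1. By this rule 818 genes (5.0% of those tested) were called, 559 (3.41%) higher and 259 (1.58%) lower. Over the tested genes the log2FC had a median of 0.12. Median-ratio rescaling of the libraries brought this median to 0.0011 and the counts to 403 higher and 362 lower. The log2FC after it are given for the members and for some of the other genes. A log2FC without such a second value is as deposited. Where 3 values follow each other for a condition, they are those of replicates 1, 2 and 3.

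FOXA2 (ENSG00000125798) lies on the minus strand of chromosome 20, at chr20:22581005-22585455 in the GENCODE 29 annotation of GRCh38. Its level was 22.3, 23.3 and 25.1 FPKM in the control libraries and 67.3, 60.1 and 64.7 FPKM in the SAR libraries. These values rest on 1286 to 1550 recovered reads per control library and 2767 to 3235 per SAR library. Every SAR library was above every control library. From 23.6 ± 1.39 (SD, n = 3) to 64.0 ± 3.66 FPKM (SD, n = 3), FOXA2 rose by a log2FC of 1.44 (SE 0.0673, limma adjusted p = 0.000107), or 1.31 after median-ratio rescaling (limma adjusted p = 0.000169). In bulk RNA, fewer cells of a type and less RNA per cell cannot be told apart, so a difference in level here may be either.

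The study's quantitative PCR (qPCR) primers for FOXA2, designed oligos, are shown because they mark which part of the transcript that assay reads. Their positions were found by matching them to the GENCODE 29 transcripts of FOXA2.
FOXA2 forward primer: tacgtgttcatgccgttcat
FOXA2 reverse primer: cgactggagcagctactatgc
The oligo listed as forward reads antisense to the mRNA and matches chr20:22583096-22583115, in the last exon of both annotated transcripts. The oligo listed as reverse reads as the mRNA and matches chr20:22584202-22584222, in the exon before it. Both sites lie in coding sequence, and the product is 90 bases long in either transcript and spans the intron between these exons. The FPKM, in contrast, were scaled to a length of 2719 bases, and the union of GENCODE 29 exons is 2603 bases.

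FOXA1 (ENSG00000129514), at chr14:37589984-37596059 on the minus strand, was the least abundant member in every library. It measured 1.72, 1.67 and 1.93 FPKM in the control libraries and 12.6, 10.3 and 9.70 FPKM in the SAR libraries. The recovered reads were 161 to 180 in control and 768 to 927 with SAR. The groups were far apart, and SAR replicate 1 was the highest. FOXA1 rose from 1.77 ± 0.140 (SD, n = 3) to 10.9 ± 1.53 FPKM (SD, n = 3), with a log2FC of 2.54 (SE 0.113, limma adjusted p = 9.97e-05) and of 2.42 after median-ratio rescaling. This was rank 51 among the log2FCs of all tested genes. In terms of level, FOXA1 moved from percentile 32.7 of the tested genes in control to percentile 75.5 with SAR.

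FOXA3 (ENSG00000170608), at chr19:45863989-45873797 on the plus strand, differed least between the conditions. Its level was 12.4, 14.9 and 13.4 FPKM in the control libraries and 17.3, 15.8 and 17.1 FPKM in the SAR libraries, from 536 to 773 and from 568 to 668 recovered reads. The groups did not overlap, but control replicate 2 was closer to SAR replicate 2 than to the other control libraries. Absence of overlap was common, since 5815 tested genes (35.5%) had each SAR library above each control library. The means were 13.5 ± 1.28 (SD, n = 3) and 16.7 ± 0.835 FPKM (SD, n = 3), with a log2FC of 0.31 (SE 0.0813, limma adjusted p = 0.0281). After median-ratio rescaling the log2FC was 0.18 with an limma adjusted p of 0.161, and over all 15 alternatives the adjusted p lay between 0.0166 and 0.161 and was under 0.05 in 7. Without a minimum fold, 3885 tested genes (23.7%) were higher at an adjusted p-value under 0.05, FOXA3 among them.

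LINC00261 (ENSG00000259974) is annotated as a lincRNA at chr20:22547671-22578642, on the same strand as FOXA2 and downstream of it. Its start lies 2362 bases past the end of FOXA2 and 6813 bases from the FOXA2 start. LINC00261 measured 6.14, 6.15 and 6.93 FPKM in the control libraries and 33.1, 28.95 and 24.9 FPKM in the SAR libraries, from 727 to 834 and from 2547 to 3067 recovered reads. Every SAR library was above every control library, and the SAR libraries spread more widely, with a coefficient of variation of 14.1% against 7.11% in control. The transcript rose from 6.40 ± 0.456 (SD, n = 3) to 28.99 ± 4.08 FPKM (SD, n = 3), with a log2FC of 2.15 (SE 0.110, limma adjusted p = 0.000137) and of 2.03 after median-ratio rescaling. Among the 162 tested genes with a symbol that begins with LINC, LINC00261 ranked 19 by level in control and 4 with SAR, and 2 by log2FC.

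**Figure D1:**
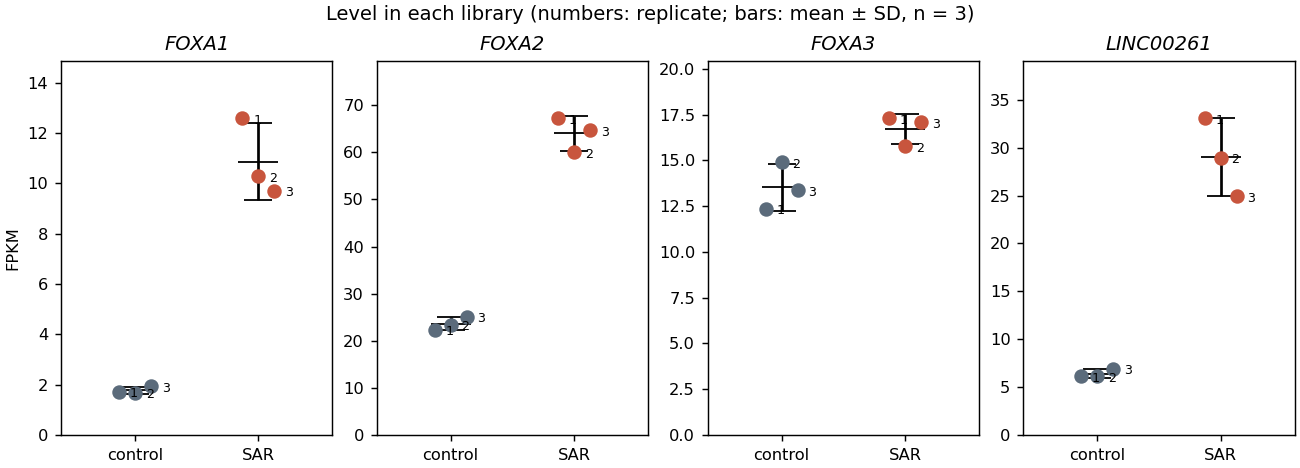
FPKM of FOXA1, FOXA2, FOXA3 and LINC00261 in the 3 control and the 3 SAR libraries, with a separate linear axis from 0 for each gene. Points are libraries numbered by replicate, and bars are the mean ± SD (n = 3). The SAR libraries of FOXA1, FOXA2 and LINC00261 sit far above control, while those of FOXA3 lie between 15.8 and 17.3 FPKM against 12.4 to 14.9 in control.

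The bases upstream of LINC00261 are printed because, of the member windows available, this was the only one with the forkhead letters, and those of FOXA1 because it showed the largest fold change. Both run from 250 bases before the RefSeq start to the base before it, on GRCh38.p14 and on the minus strand, written in the direction of transcription. Capitals mark a match to the forkhead letters TNTTTAC, here on the reverse strand as GTAAACA.
LINC00261, chr20:22578643-22578892: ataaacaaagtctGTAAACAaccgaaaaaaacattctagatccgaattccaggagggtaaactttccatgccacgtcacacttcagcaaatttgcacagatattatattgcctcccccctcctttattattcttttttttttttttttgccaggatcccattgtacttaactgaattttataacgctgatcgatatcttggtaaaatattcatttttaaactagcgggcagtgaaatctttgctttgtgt
FOXA1, chr14:37595250-37595499: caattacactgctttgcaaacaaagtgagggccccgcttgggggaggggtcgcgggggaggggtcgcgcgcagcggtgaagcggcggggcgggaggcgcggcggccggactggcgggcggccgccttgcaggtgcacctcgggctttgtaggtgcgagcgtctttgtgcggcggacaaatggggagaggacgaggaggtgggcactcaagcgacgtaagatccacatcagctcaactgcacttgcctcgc
The LINC00261 window lies between LINC00261 and FOXA2 and holds no exon of LINC00261, whereas 99 bases of the FOXA1 window lie in an exon of another FOXA1 transcript in GENCODE 29. Their base composition differed, with a GC content of 34.8% in the LINC00261 window, at percentile 5.3 of all promoters in the reference, and of 67.2% in the FOXA1 window, at percentile 72.7. The FOXA3 window, at chr19:45864076-45864325, had 75.2% GC and percentile 89.9.

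The windows of 3 of the 4 members, FOXA1, FOXA3 and LINC00261, were searched on both strands for 6 sets of letters. The forkhead letters TNTTTAC stood 237 bases before the start of LINC00261 and were present in 9.58% of the 35116 promoters of the reference. The SMAD letters CAGAC, held by 38.0% of those promoters, matched as GTCTG 241 bases before the LINC00261 start, where the match shares a base with the forkhead letters, and 134 bases before the FOXA3 start. The TEAD letters GGAATG, the TCF letters CTTTGA, the GATA letters AGATAA and the T-box letters GGTGTGA, with shares of 11.9%, 11.2%, 9.17% and 2.76%, were not found in these windows. These matches describe letters, and binding was not measured.

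The annotation limits how LINC00261 and FOXA2 reads can be separated. GENCODE 29 holds another gene on that strand, AL121722.1 (ENSG00000283932, chr20:22560553-22584261), with 4 exons, of which the most upstream, of 70 bases, lies on a FOXA2 exon and the other 3 on LINC00261 exons. It shares 4779 of the 5552 exon bases of LINC00261 (86.1%) and 70 of the 2603 exon bases of FOXA2 (2.69%). The reverse primer of FOXA2 lies inside that shared exon, at chr20:22584192-22584261, and the forward primer does not. AL121722.1 has no row in the table used here, which lists only genes detected in some library. It may have been missing from the annotation used, or have been given no reads. How reads on the shared exons were assigned is not known, so the LINC00261 values may include such reads or lack them. Reads of a joined transcript and of LINC00261 cannot be told apart here. The FOXA genes themselves share little sequence: the longest identical stretch between their transcripts was 48 bases, between FOXA1 and FOXA2, and 29 bases for FOXA3 with either of them.

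Since FPKM are scaled by length, levels can be compared between the members. The level of LINC00261, and so its place in the order, depends on how reads on the exons shared with AL121722.1 were assigned. In each control library the order was FOXA2, FOXA3, LINC00261 and FOXA1, and in each SAR library it was FOXA2, LINC00261, FOXA3 and FOXA1. The ranges of neighbors in this order did not overlap in either condition. LINC00261 was at 0.497, 0.413 and 0.519 of the FOXA3 level in the control libraries and at 1.91, 1.84 and 1.46 of it in the SAR libraries. The exchange of places between LINC00261 and FOXA3 was thus present in every library.

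The 3 FOXA genes together had 36.4, 39.9 and 40.3 FPKM in the control libraries and 97.2, 86.1 and 91.5 FPKM in the SAR libraries, a ratio of means of 2.36. FOXA2 held most of this sum in every library, 60.7% ± 1.90 (SD, n = 3) in control against 69.9% ± 0.759 (SD, n = 3) under SAR. FOXA3 held 34.8% ± 2.23 (SD, n = 3) and 18.3% ± 0.432 (SD, n = 3), so its share was lower with SAR although its level was not. FOXA1 held 4.57% ± 0.331 (SD, n = 3) in control against 11.8% ± 1.182 (SD, n = 3) under SAR. For each of the 3 genes, the shares in the control libraries and in the SAR libraries did not overlap.

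**Figure D2:**
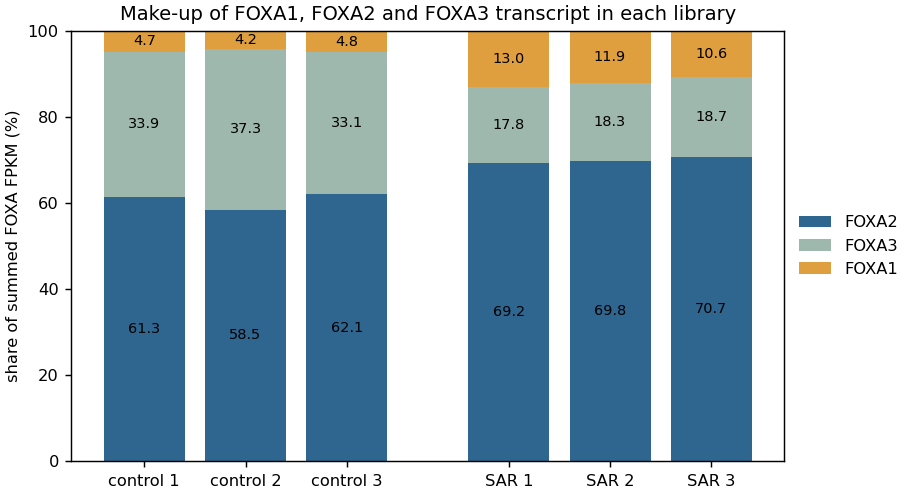
Share of the summed FPKM of FOXA1, FOXA2 and FOXA3 held by each gene in each library, in percent. FOXA3 holds between 33.1% and 37.3% in control and between 17.8% and 18.7% with SAR, and FOXA1 between 4.19% and 4.79% and between 10.6% and 12.96%.

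Whether the members moved by unequal factors was tested on the log2 ratio of each gene to FOXA2 within a library, which does not depend on the scaling between libraries. The log2 ratio of FOXA1 to FOXA2 was -3.63, -3.73 and -3.63 in the control libraries and -2.41, -2.54 and -2.73 in the SAR libraries, a difference of 1.10 (SE 0.0981). FOXA1 was closer to FOXA2 in all SAR libraries. For LINC00261 the log2 ratio was -1.85, -1.91 and -1.84 in control and -1.02, -1.05 and -1.37 with SAR, a difference of 0.72 (SE 0.115). SAR replicate 3 was the closest to control for both genes. The log2 ratio of FOXA3 to FOXA2 went the other way, with a difference of -1.13 (SE 0.0792), from 0.553, 0.638 and 0.533 of the FOXA2 level in control to 0.257, 0.263 and 0.264 with SAR. Each of the 3 differences gave p = 0.1 in an exact two-sided permutation test and 0.1 after Benjamini-Hochberg adjustment over the 3 ratios, which is the smallest p that 3 libraries against 3 allow, so this design cannot reach 0.05.

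Among the 24 tested genes with a FOX symbol, of 52 in the table, FOXA2 was the most abundant in both conditions. FOXA3 ranked 2 by level in control and 4 with SAR, where FOXJ3 (13.5 to 21.2 FPKM) and FOXH1 (13.3 to 17.2 FPKM), the latter a partner of SMAD proteins in Nodal signaling, lay above it. Neither FOXJ3 nor FOXH1, both named after their values were seen, was called. FOXA1 moved from rank 15 to rank 6 by level. By log2FC FOXA1, FOXA2 and FOXA3 ranked 3, 4 and 13 in the family.

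**Figure D3:**
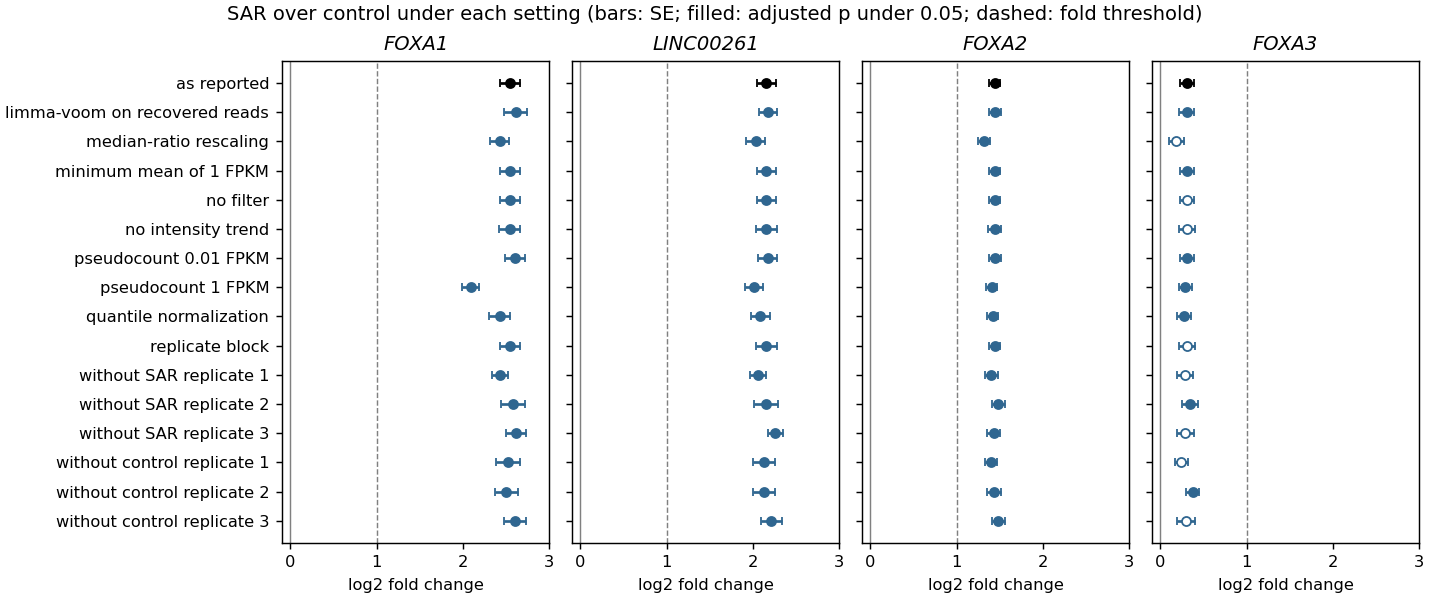
Log2 fold change, SAR over control, of the 4 members under each way of processing the data, with the threshold of 1 marked. FOXA1 stays between 2.09 and 2.62, LINC00261 between 2.01 and 2.26 and FOXA2 between 1.31 and 1.48, while FOXA3 stays between 0.18 and 0.38.

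Genes near the members were read next, to see whether the change extended along the chromosome. Of the 92 genes that GENCODE 29 places within 500 kb of a member, 75 were listed and 38 were tested, and their median log2FC was 0.19, where the whole table had 0.12. Of these, 4 were upregulated and none was downregulated by limma, beside 3.41% and 1.58% of all tested genes. Without a minimum fold, 14 of the 38 passed an adjusted p-value of 0.05, 13 higher and 1 lower, where 23.7% and 9.55% of all tested genes did.

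TTC6, a gene of tetratricopeptide repeats that starts head to head with FOXA1 on the opposite strand, was among the upregulated neighbors. Its level was 0.268, 0.230 and 0.272 FPKM in the control libraries and 1.57, 1.31 and 1.24 FPKM in the SAR libraries, from 43 to 49 and from 186 to 219 recovered reads. TTC6 rose by a log2FC of 2.04 (SE 0.2004, limma adjusted p = 0.00116), or 0.91 when the pseudocount was 1, and it passed the filter only through the SAR libraries. The groups did not overlap. The SAR libraries had the order of FOXA1, which genes that fell with SAR, such as MIXL1, also had. TTC6 and FOXA1 overlap by 213 bases, of which 16 are exon bases of both (0.402% of FOXA1), and whether reads were counted by strand is not known. The other 5 tested neighbors of FOXA1 were not called, and MIPOL1, the nearest protein-coding gene on its other side, was at 1.08 and 0.949 FPKM, with a log2FC of -0.17 (limma adjusted p = 0.361).

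A small nucleolar RNA (ENSG00000200385) that lies within TTC6, on the same strand, was also called, at a log2FC of 2.47 (limma adjusted p = 0.0476). This call rests on 0 to 2 recovered reads in control and 3 to 7 with SAR and was made in 5 of 15 alternatives. Around FOXA2 and LINC00261, 19 genes are annotated, 10 were listed and only THBD, which encodes thrombomodulin, was abundant enough to be tested. THBD measured 0.612 ± 0.0424 (SD, n = 3) and 1.04 ± 0.0513 FPKM (SD, n = 3), with a log2FC of 0.69 (limma adjusted p = 0.0162) that did not reach the fold threshold. LNCNEF, a long noncoding RNA of that locus, had 0 recovered reads in 4 libraries and 1 in each of SAR replicates 2 and 3. FOXA3 sits in a gene-dense region with 30 tested neighbors, of which SIX5, a homeobox gene, and NOVA2, a regulator of RNA splicing, were upregulated at 1.05 and 1.08 (limma adjusted p = 0.0054 and 0.00957). Both were under the fold threshold after median-ratio rescaling, at 0.94 and 0.98. SYMPK, the nearest gene to FOXA3, was at 8.23 and 9.10 FPKM and was not called.

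**Figure D4:**
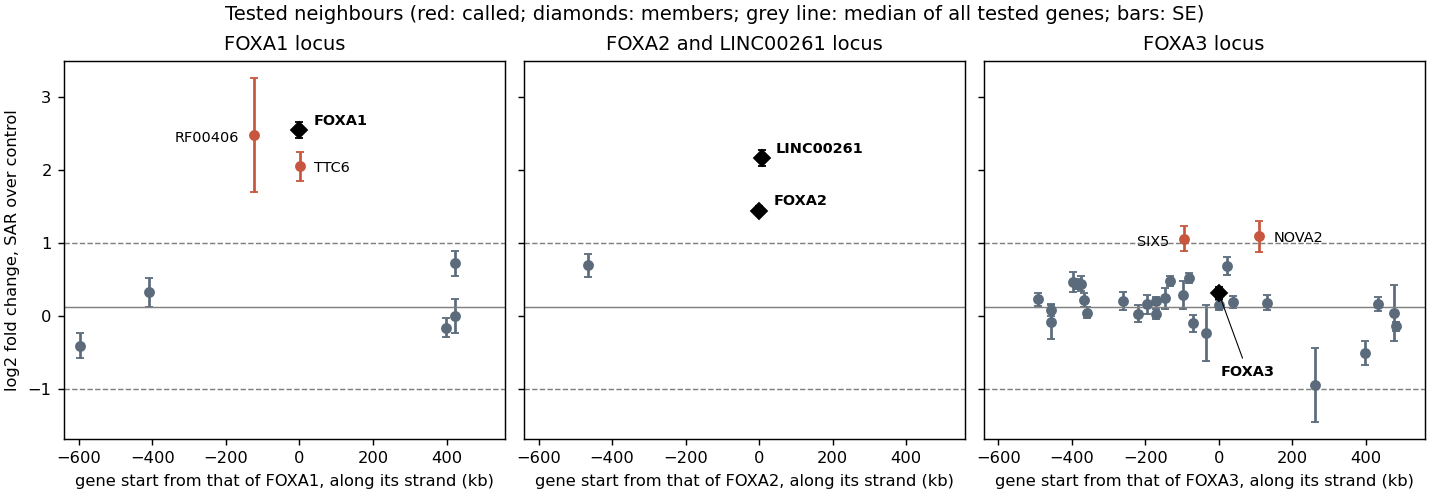
Log2 fold change (SAR over control, bars: SE) of the tested genes within 500 kb of FOXA1, of FOXA2 and LINC00261, and of FOXA3, against the distance of their start in kb. Diamonds are the members, red points are called genes and the grey line is the median of all tested genes, 0.12. TTC6 lies beside FOXA1 at 2.04, and FOXA3 lies among its neighbors.

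The regulators known to act upstream of the FOXA genes in DE changed in both directions. All 23 genes of a list of Nodal, SMAD, T-box, homeobox, GATA, SOX and TCF genes were tested, and 4 were upregulated and 4 downregulated by limma, with a median log2FC of -0.06 (-0.18 after median-ratio rescaling). Without a minimum fold, 7 were higher and 7 lower, beside 23.7% and 9.55% of all tested genes. EOMES, a T-box factor needed for DE, fell from 83.1 ± 11.1 (SD, n = 3) to 32.1 ± 2.82 FPKM (SD, n = 3), with a log2FC of -1.36 (limma adjusted p = 0.000674). The homeobox genes GSC (-1.48) and MIXL1 (-1.35) also fell, and GATA4 (-1.05), a zinc finger factor of endoderm and heart, did so but was at -0.89 without SAR replicate 3 and at -0.95 with a pseudocount of 1.

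In the other direction moved TBXT, LEF1, SOX17 and TCF7L2. TBXT, the T-box factor of primitive streak and notochord, measured 3.79, 3.40 and 3.34 FPKM in the control libraries and 14.0, 11.4 and 9.69 FPKM in the SAR libraries. It rose by a log2FC of 1.69 (limma adjusted p = 0.000574). Its SAR libraries had the same order as for FOXA1 and LINC00261, but not as for FOXA2. MIXL1 (21.8, 18.3 and 13.25 FPKM with SAR) and GATA4 (7.89, 6.88 and 5.26 FPKM with SAR), which fell, had this order as well. LEF1 and TCF7L2, which bind DNA for Wnt signaling, rose by 2.03 (limma adjusted p = 0.00401) and 1.02 (limma adjusted p = 0.000332), the latter at 0.90 after median-ratio rescaling and the former at 0.76 with a pseudocount of 1. LEF1 was at 0.168 FPKM in control and passed the filter only through the SAR libraries. SOX17 rose by 1.06 (limma adjusted p = 0.00724), but was at 0.93 after median-ratio rescaling and at 0.87 without SAR replicate 1. Among the members of Nodal signaling itself, the ligand NODAL was at -0.53, SMAD2 at -0.61 and FOXH1 at 0.37. The receptor ACVR1B was at 0.29 and the co-receptor TDGF1 at 0.20. These genes were all under an adjusted p of 0.05 in limma and none was past the fold threshold. After median-ratio rescaling ACVR1B (0.17, limma adjusted p = 0.166) and TDGF1 (0.07, limma adjusted p = 0.415) were no longer under 0.05. ACVR2A, ACVR2B, SMAD3 and SMAD4 were not under it as deposited, and ACVR2B was after rescaling (-0.33, limma adjusted p = 0.0216).

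TLE proteins are co-repressors that FOXA factors can recruit. None of the 5 TLE genes was called by limma, beside 5.0% of all tested genes. Without a minimum fold 4 of 5 had an adjusted p-value under 0.05, all higher, as had 23.7% of all tested genes. After median-ratio rescaling this held for TLE1 and TLE2 only, beside 13.8% of all tested genes. The largest difference was that of TLE1, from 12.4 ± 0.454 (SD, n = 3) to 19.2 ± 3.22 FPKM (SD, n = 3), with a log2FC of 0.61 (limma adjusted p = 0.0113). TLE3, at 0.11, had an adjusted p of 0.297 in limma. The median of the 5 was 0.37, or 0.25 after rescaling, beside 0.12 and 0.0011 for all tested genes.

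Genes with FOXA-bound control regions in liver, lung, gut and prostate were mostly under the filter. Of 38 such genes, 8 passed it, and the counts cover only those. TFF3, a trefoil peptide of mucous epithelia, was the only gene called among them, upward, as were 3.41% of all tested genes. It measured 1.14, 0.267 and 0.402 FPKM in the control libraries and 11.6, 11.3 and 12.6 FPKM in the SAR libraries, from 6 to 23 and from 176 to 213 recovered reads. TFF3 rose by a log2FC of 4.28 (SE 0.407, limma adjusted p = 0.00104), with the control libraries more spread than the SAR libraries. APOA2, an apolipoprotein of liver, was at 17.6 and 30.7 FPKM (0.77, limma adjusted p = 0.0127), under the fold threshold. The hepatocyte genes ALB and AFP were at or under 0.442 FPKM in every library. The median over the 8 tested genes was 0.17.

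FOXA2 is also a gene of the node and floor plate, and a list of such genes was read for that reason. Of 17 genes, 16 were listed and 10 passed the filter. By limma 5 of these were upregulated and 1 downregulated, beside 3.41% and 1.58% of all tested genes. The 10 had a median log2FC of 0.93 (0.82 after median-ratio rescaling). NOTO, a homeobox gene of the node and notochord, was at 0.113, 0.0842 and 0 FPKM in the control libraries and at 2.71, 1.77 and 1.36 FPKM in the SAR libraries. With 0 to 6 recovered reads in control and 61 to 110 with SAR, its log2FC was 3.65 (limma adjusted p = 0.00164), and the size depended on the pseudocount, from 1.44 at 1 to 5.27 at 0.01. CHRD, which encodes the BMP antagonist chordin, rose from 0.274 to 2.10 FPKM, by 2.60 (limma adjusted p = 0.00114), or 1.28 at a pseudocount of 1. NOTO and CHRD passed the filter only through the SAR libraries where they were high, so the count and median over the tested genes lean on that filter. Without it, 6 of the 16 listed genes were called higher and 1 lower, beside 630 and 318 of all 40396 genes. TBXT was upregulated here as well, and so was GLI1, a target and effector of hedgehog signaling, at 1.06 and at 0.95 after median-ratio rescaling.

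NTN1, which encodes the axon guidance protein netrin of the floor plate, moved against the rest of that list. Its level fell from 16.2 to 5.74 FPKM, with a log2FC of -1.48 (limma adjusted p = 0.000672). SHH, the hedgehog ligand of the node and floor plate, had a mean under the filter, 0.0953 FPKM in control and 0.8003 with SAR. It is given because it belongs to both this list and that of FOXA-bound genes. With 5 to 19 recovered reads in control and 66 to 79 with SAR, its groups did not overlap, and without the filter its log2FC was 2.25 (limma adjusted p = 0.00915).

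**Figure D5:**
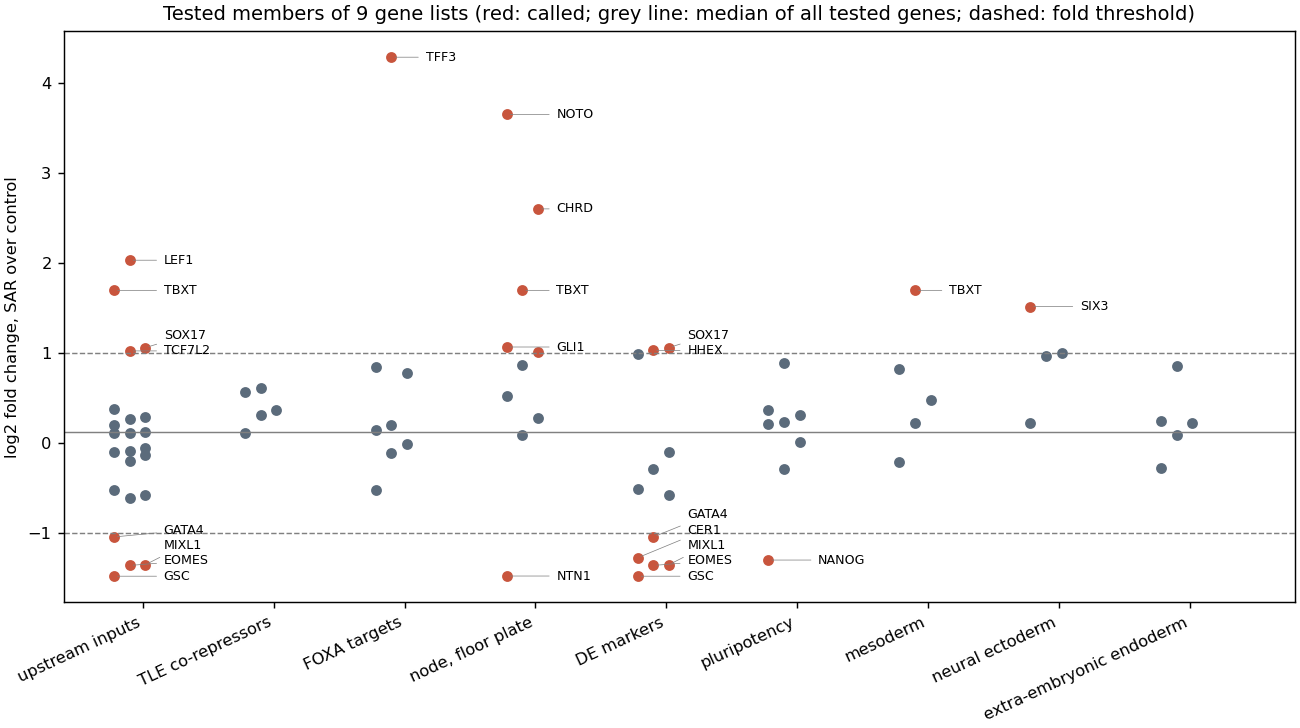
Log2 fold change, SAR over control, of the tested genes in 9 lists, with called genes in red, those with a limma adjusted p under 0.01 named, the threshold of 1 in either direction dashed and the median of all tested genes, 0.12, in grey. TBXT belongs to 3 lists, and the DE markers and upstream inputs hold called genes on both sides.

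The cell type labels were read from markers. All 12 DE markers were tested, and 2 were upregulated and 5 downregulated by limma, beside 3.41% and 1.58% of all tested genes. Their median log2FC was -0.54, and after median-ratio rescaling it was -0.67. After rescaling 0 were upregulated and 5 downregulated, where 403 and 362 of the 16371 tested genes were. As deposited and without a minimum fold, 3 were higher and 7 lower, beside 23.7% and 9.55% of all tested genes. HHEX, a homeobox gene of anterior endoderm, rose by 1.03 (0.90 after median-ratio rescaling), together with SOX17. CER1, a secreted Nodal antagonist and the most abundant of them, fell from 4104 ± 534 (SD, n = 3) to 1683 ± 35.4 FPKM (SD, n = 3), with a log2FC of -1.28 (limma adjusted p = 0.000683), or -0.93 after quantile normalization, and EOMES, GSC, MIXL1 and GATA4 fell with it. KIT, at 0.98, and CXCR4, at -0.51, were not called. FOXA1, FOXA2 and LINC00261 thus rose in libraries in which DE markers moved in both directions.

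Markers of other cell types were measured beside the members. Of all tested genes, 3.41% were called higher and 1.58% lower. Without a minimum fold these shares were 23.7% and 9.55%. Of 8 tested pluripotency markers NANOG alone was called and fell by 1.30 on the log2 scale. Without a minimum fold SOX2, at 22.1 and 39.8 FPKM (0.88, limma adjusted p = 0.0153), and LIN28A, at 396 and 456 FPKM (0.20, limma adjusted p = 0.0267), were higher. The median log2FC of the 8 was 0.215, or 0.092 after median-ratio rescaling. The summed FPKM of the list was 733 to 852 in control and 899 to 926 with SAR. For mesoderm, 5 of 11 markers were tested and TBXT alone was called, with sums of 21.0 to 23.6 and 28.8 to 32.4 FPKM. TBXT accounts for most of that difference, and KDR, the most abundant of them, was at 13.4 and 11.5 FPKM (-0.22, limma adjusted p = 0.0177). For neural ectoderm, 4 of 10 were tested and SIX3 alone was called (1.51, from 0.343 to 1.14 FPKM). SIX3 passed the filter only through the SAR libraries and was at 0.67 with a pseudocount of 1. The sums were 55.5 to 70.1 FPKM in control and 67.4 to 84.7 FPKM with SAR. The defining genes PAX6 and SOX1 were under the filter. PAX6 went the other way from SIX3, with 24 to 50 recovered reads per control library and 1 in each SAR library (-0.87 without the filter, limma adjusted p = 0.0462). For extra-embryonic endoderm, which also expresses FOXA2, 5 of 9 were tested and none was called by limma (2 higher and 1 lower without a minimum fold), with sums of 538 to 548 and 564 to 623 FPKM. SOX7, which marks it, was under the filter at 0.203 and 0.455 FPKM. No marker of these lists was at 0 in all libraries, but this held for every gene of the table and says nothing about the markers. The part of other cell types in the rise of FOXA1, FOXA2 and LINC00261 was not tested.

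The genes whose profile over the 6 libraries was most like that of each member were found among the 13489 other genes that averaged 1 FPKM or more, by the root mean square difference of log2(FPKM + 0.1) centred on each gene's mean. For FOXA1 these were IKZF2 (0.113), ANGPT2 (0.153), LYPD6B (0.173), DYNLT5 (0.184) and BHLHE22 (0.184), and LINC00261 stood at rank 6 (0.198) and FOXA2 at rank 95. For LINC00261 they were SOX21-AS1 (0.0695), CAMK2N1 (0.108), BHLHE22 (0.123), SHISA3 (0.141) and POMC (0.152), and FOXA1 stood at rank 11 and FOXA2, its neighbor, at rank 65. BHLHE22 was in both sets and measured 2.61 ± 0.496 (SD, n = 3) and 12.7 ± 1.66 FPKM (SD, n = 3). For FOXA2 they were FGF4 (0.0883), the pseudogene ENSG00000177359 (0.0935), SALL1 (0.0953), MCOLN3 (0.101) and ENSG00000287059 (0.105). SALL1, a zinc finger factor, measured 16.5 ± 0.701 (SD, n = 3) and 49.3 ± 0.606 FPKM (SD, n = 3). LINC00261 was at rank 543 for FOXA2 and FOXA1 at rank 2925. By this measure LINC00261 was nearer to FOXA1 on chromosome 14 (0.198) than to FOXA2 (0.376). As the libraries form a control and a SAR group, the measure mostly restates the log2FC and adds little beyond it. The log2FC was 2.54 for FOXA1, 2.15 for LINC00261 and 1.44 for FOXA2. IKZF2, LYPD6B, DYNLT5, SOX21-AS1, MCOLN3 and ENSG00000287059 averaged under 1 FPKM in control and passed that filter only through the SAR libraries. For FOXA3 they were PLEKHF2 (0.0241), CFDP1 (0.0306), ZNF800 (0.0317), ENSG00000271992 (0.0329) and ZBTB10 (0.0347), none of which was called.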

How the data were processed

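The data were 6 RNA-seq libraries of mRNA selected with oligo(dT) beads, read paired-end. The authors deposited FPKM per gene, 1 column per library without pooling, and the submitters' processing notes name HISAT2, featureCounts of Subread, DESeq2 and GRCh38.p13. The annotation release and strand setting are not given in the sources used here.

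As FPKM are not counts, limma 3.58.1 in R 4.3.3 (lmFit, eBayes with an intensity trend) was run on log2(FPKM + 0.1) of 16371 genes, which averaged 0.5 FPKM or more, with Benjamini-Hochberg adjustment and without covariates. The added 0.1 makes fold changes of low genes smaller. Library totals were recovered from the FPKM with GENCODE 29 exon lengths, and read counts with the length at which a gene gave whole reads, which for all 4 members was not the GENCODE length. Of the 40396 genes, 99.995% gave whole reads within 0.02 at some length, and 59.962% of the 39023 genes held by GENCODE 29 did so at its exon length. Recovered reads give the depth behind a value and cover counting error only. Symbols were matched for 30235 genes, and promoter sequences are those of RefSeq. Python 3.11.15, pandas 2.3.3, numpy 2.4.6, scipy 1.17.1 and matplotlib 3.10.9 were used.

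Members and gene lists were chosen with earlier results of these data known. The genes named were the 4 members, the called genes of each list (up to 4 by smallest adjusted p) and its defining genes, the tested neighbors within 500 kb, the 5 genes most like each member in profile, and the gene overlapping LINC00261. KIT, CXCR4, GATA4, HHEX, SOX17, LEF1, GLI1, TLE1, TLE3, NODAL, SMAD2, SMAD3, SMAD4, FOXH1, ACVR1B, ACVR2A, ACVR2B, TDGF1, TLE2, SOX2, LIN28A, KDR, APOA2, SHH and LNCNEF are outside this rule and were named after their values were seen, as were others so marked. Some genes of the lists are counted but not reported by name here. Simulated data served to check the test. The alternatives were other pseudocounts, filters and scalings, voom on recovered reads, no intensity trend, no minimum fold, a replicate block and each library left out.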

Additional observations from a re-analysis of the deposited data

How the results depend on the processing

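FOXA1, FOXA2 and LINC00261 kept their direction and call, and FOXA3 remained uncalled, under each of 15 alternatives. With 1 library left out the log2 fold changes lay between 2.43 and 2.62 for FOXA1, 1.40 and 1.48 for FOXA2, 0.24 and 0.38 for FOXA3, and 2.05 and 2.26 for LINC00261. The differences of the ratios to FOXA2 kept their sign in 9 alternatives, with exact permutation p of 0.1 or 0.2, which cannot reach 0.05.

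With a replicate block the adjusted p from limma was 0.00102 for FOXA1, 0.00105 for FOXA2, 0.0558 for FOXA3 and 0.00147 for LINC00261, at log2 fold changes of 2.54, 1.44, 0.31 and 2.15, and 546 genes were higher and 274 lower. Deviations of same-numbered libraries correlated at 0.0729, 0.00286 and 0.0247, and those of differently numbered libraries at -0.0833 to 0.0667. Control replicate 2 correlated best with SAR replicate 3. These small values do not settle whether the replicate numbers pair the samples.

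Counts of called genes moved more. For upstream inputs the count was 8, and it was 5 with a pseudocount of 1, 14 with no minimum fold and 5 to 8 with a library left out. FOXA-bound genes went from 1 to 2 with no filter, 4 with no minimum fold and 1 to 2 with a library left out. With no minimum fold there were 4 TLE genes in place of 0, 3 pluripotency markers in place of 1, 3 mesoderm markers in place of 1 and 3 extra-embryonic endoderm markers in place of 0, and with a library left out there were 1 to 2 pluripotency markers. Neural ectoderm markers went from 1 to 3 with voom, a pseudocount of 0.01 or no minimum fold, to 0 at a minimum mean of 1 FPKM or a pseudocount of 1, and to 1 to 2 with a library left out. Called neighbors went from 4 to 1 with median-ratio rescaling, quantile normalization or a pseudocount of 1, to 2 at a minimum mean of 1 FPKM, to 14 with no minimum fold, and to 1 to 4 with a library left out, with 1 without SAR replicate 3 and 2 without control replicate 2. Over all genes, 169 were called higher and 141 lower with a pseudocount of 1. Depth limits TTC6, LEF1, NOTO, CHRD, SHH, TFF3, SIX3 and the small nucleolar RNA, each with at most 60 recovered reads in each control library.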
